A study of Mus musculus with 60 samples.

Results

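Egr1, Fos, Fosl1, Jun, Junb, Jund, Ier2, Ier3 and Srf are 9 immediate early genes, and their transcripts were followed by RNA-seq in mouse embryonic stem cells converted to 2i medium. They were picked by gene symbol from the 50559 genes of a table of read counts. The rule held no measured value, but the choice was made with earlier results of these data known. The cells belonged to 4 lines. Eed knockout and Ezh2 knockout cells are isogenic Cas9-edited derivatives of the wild-type line 1A, each a single line without a core subunit of Polycomb repressive complex 2 (PRC2), and V19 and 1A are wild-type lines that were derived independently. All groups grew in serum with LIF on gelatin. 2i adds CHIR99021 at 3 µM, an inhibitor of the kinase GSK3, and PD0325901 at 1 µM, an inhibitor of the kinase MEK. Each line was collected after 0, 12, 24, 48 and 96 h in 2i with 3 biological replicates per time, which gave 20 groups and 60 libraries. Both inhibitors were present in every 2i group and no untreated culture of the later times was analysed here, so MEK inhibition, GSK3 inhibition and time in culture cannot be told apart. In bulk RNA, fewer cells that express a gene and less of its RNA per cell cannot be told apart either.

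Immediate early genes are transcribed within minutes of a growth factor signal and need no new protein for it. The kinase MEK activates ERK, which phosphorylates ternary complex factors such as Elk1, and these bind together with the serum response factor Srf at serum response elements, among others upstream of Fos and Egr1. Fos and Jun proteins pair to form the transcription factor AP-1. In mouse embryonic stem cells the growth factor FGF4, which the cells make themselves, keeps ERK active, and blocking MEK and GSK3 holds the cells in the naive state of pluripotency.

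The upstream sequences of Srf, Fos and Junb are shown because these 3 members with a promoter entry were lower at 12 h in all 4 lines and are targets of growth factor signalling themselves. Of the 9 members, 6 matched a window of the RefSeq promoter table (GRCm38.p6, 250 bases before to 50 bases after the start), namely Fos, Jun, Junb, Jund, Ier3 and Srf. The 250 bases before the start run 5′ to 3′ on the strand of the gene, at chr17:46556163-46556412 (minus strand) for Srf, chr12:85473640-85473889 (plus strand) for Fos and chr8:84978749-84978998 (minus strand) for Junb. Capitals mark the CArG box, the motif that Srf binds, and the ETS core CCGGAA, a motif of the ternary complex factors.
Srf: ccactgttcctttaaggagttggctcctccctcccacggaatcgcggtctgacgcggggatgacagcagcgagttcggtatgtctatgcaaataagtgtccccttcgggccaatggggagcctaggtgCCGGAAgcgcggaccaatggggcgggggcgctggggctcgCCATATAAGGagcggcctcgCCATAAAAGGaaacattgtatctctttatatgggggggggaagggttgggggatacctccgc
Fos: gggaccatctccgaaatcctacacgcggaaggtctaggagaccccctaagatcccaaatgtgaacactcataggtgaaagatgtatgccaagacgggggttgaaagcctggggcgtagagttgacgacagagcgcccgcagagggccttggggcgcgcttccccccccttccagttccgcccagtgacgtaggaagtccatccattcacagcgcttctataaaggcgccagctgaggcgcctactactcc
Junb: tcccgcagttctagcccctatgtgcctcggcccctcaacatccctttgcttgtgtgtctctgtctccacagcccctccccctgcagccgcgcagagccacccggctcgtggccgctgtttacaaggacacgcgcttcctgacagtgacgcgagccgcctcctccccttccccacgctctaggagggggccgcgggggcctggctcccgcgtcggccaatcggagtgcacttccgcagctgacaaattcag
Srf's own window held 2 CArG boxes, CCATATAAGG at positions -82 to -73 and CCATAAAAGG at -62 to -53 before the start, and CCGGAA at -122 to -117. These letters were not in the windows of the other 5 members. Sequence more than 250 bases before the start was not searched, so sites further upstream would be missed. The motifs were searched on both strands of the 300 base windows, as were the CRE TGACGTCA and the AP-1 motif TGAGTCA, which no member's window held, and the SP1 motif GGGCGG, which those of Fos, Jun, Ier3 and Srf held. None of the matches in Srf's window overlapped another. Of all 32851 windows of the table, 1.63% held a CArG box, 14.9% CCGGAA, 1.79% the CRE, 5.20% the AP-1 motif and 35.7% GGGCGG.

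Assigned reads per library numbered 2561169 to 11065948, with a median of 6055990. From their group, 5 libraries stood apart, with a root mean square deviation from the group mean of more than 2 times the median of 0.104 (log2, over 7611 genes). They were V19 wild type at 48 h replicates 2 (0.347) and 3 (0.260), 1A wild type at 24 h replicate 1 (0.260) and Eed knockout at 12 h replicates 1 (0.245) and 3 (0.240). In the knockouts the targeted transcript was low in each of 15 libraries. Eed ranged over 15.3 to 28.2 CPM in Eed knockout, against 246.1 to 393 CPM in 1A wild type, and Ezh2 over 14.5 to 19.9 CPM in Ezh2 knockout, against 194 to 278 CPM in 1A wild type. The pluripotency genes Pou5f1 (609 to 2060.4 CPM) and Nanog (223 to 1732 CPM) had reads in all 60 libraries. Their level was not the same in all lines. The 10 pluripotency markers summed to 4480 to 4694 CPM in Eed knockout at 0 h, against 5687 to 5890 CPM in 1A wild type. At 48 h the sums were 3778 to 3936 CPM and 8699 to 9989 CPM, and at 96 h 5240 to 5259 CPM and 7637 to 8137 CPM.

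Of the 9 members, 8 passed the filter on low counts and were tested among 15083 genes, and Fosl1 with 106 reads in all libraries did not pass. Levels are counts scaled to the library total with TMM factors (CPM), changes are log2 fold changes ± standard error (SE) with 3 libraries per group, and a gene is called at an adjusted p under 0.05 from edgeR's quasi-likelihood test over all genes. Egr1, Fos, Junb and Srf were called lower at 12 h than at 0 h in all 4 lines, and Jund was called higher in all 4. The share of all genes called the same way in all 4 lines is not given here, and both knockout lines derive from 1A. Nor is the share of all genes whose libraries of the compared times did not overlap. In Eed knockout cells 2 members were higher and 4 lower at 12 h, against 25.2% of all tested genes higher and 25.2% lower. In Ezh2 knockout cells 1 was higher and 6 lower, against 26.2% and 23.9% of all genes, and in V19 wild type 1 and 6, against 21.5% and 20.8%. In 1A wild type 1 was higher and 6 lower, against 20% and 20.8% of all genes. The median change of the 8 members at 12 h was -0.25 in Eed knockout, -0.76 in Ezh2 knockout, -0.69 in V19 wild type and -0.90 in 1A wild type. The median of all genes was between 0.02 and 0.05 in the 4 lines.

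The counts changed with time in 2i, most in Eed knockout cells. At 24 h, 7 members were called in Eed knockout cells (41.1% of all genes called), 6 in Ezh2 knockout (46.7%), 8 in V19 wild type (40.4%) and 7 in 1A wild type (46.4%). At 48 h, 6 were called in Eed knockout cells (49.2%), 6 in Ezh2 knockout (49.1%), 8 in V19 wild type (50.8%) and 7 in 1A wild type (53%). At 96 h only Egr1 was called in Eed knockout cells, as lower, and no member was higher (16.4% of all genes lower, 23.3% higher), and at an unadjusted p under 0.05 the count of higher members was 0 as well. Ezh2 knockout cells then had 6 members lower and none higher (20.7% lower, 22.2% higher), V19 wild type 7 lower and none higher (22.7% lower, 24.8% higher) and 1A wild type 6 lower and 1 higher (23.5% lower, 25.1% higher). Among the 8 tested members, the 96 h count in Eed knockout cells was 2 without the filter, 3 with the 2 groups fitted alone and 2 without the 5 libraries that stood apart. It was also 2 on the authors' values normalized by removal of unwanted variation (RUV). Fosl1 is left out of these counts and was called lower there without the filter (-1.84, adjusted p = 0.045).

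**Figure D1:**
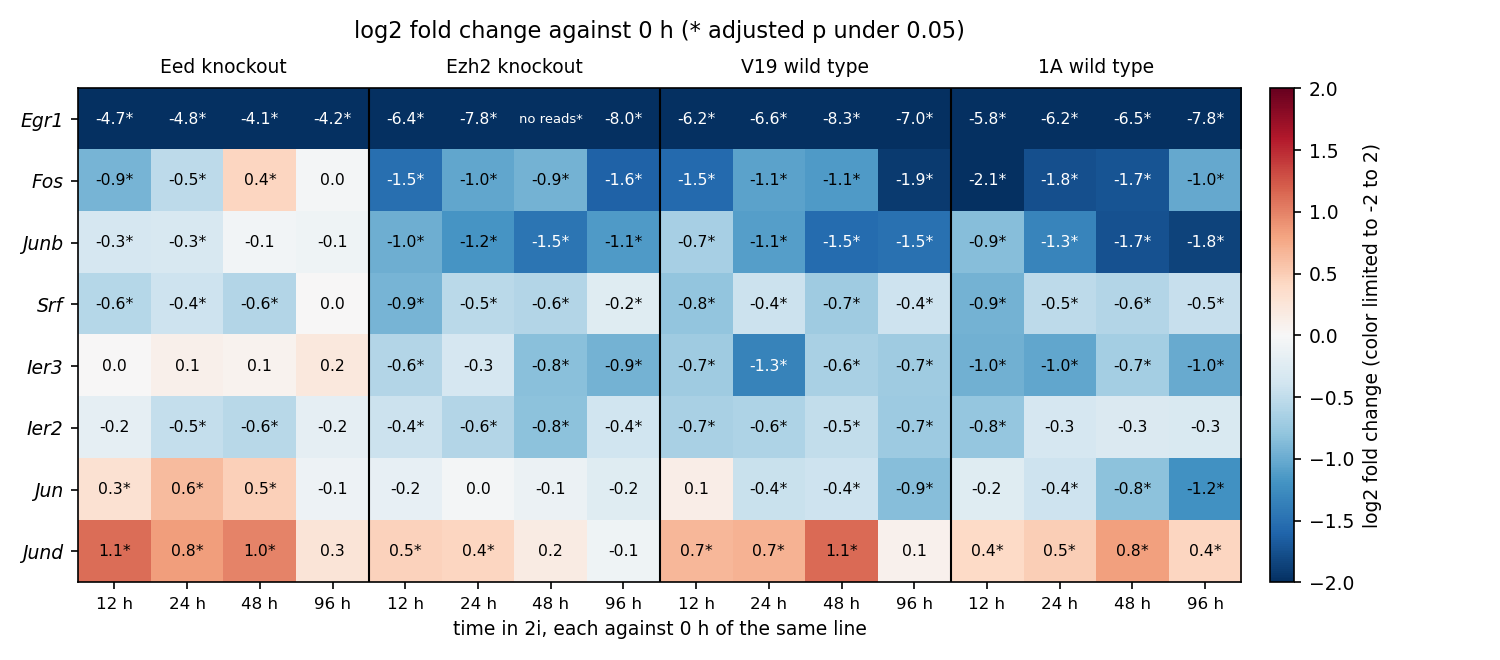
Log2 fold change of the 8 tested members at 12, 24, 48 and 96 h, each against 0 h of the same line (rows are genes, columns are times within 4 lines, color is limited to -2 to 2, and a star marks an adjusted p under 0.05). Egr1 is called lower in all 16 columns, and in Eed knockout cells it is the only member with a star at 96 h.

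Compared per kb of exon, the members differed widely in level before 2i. In 1A wild type at 0 h Ier2 led with 169 ± 17.9 CPM per kb (SD, n = 3), followed by Jund (57.4 ± 6.29) and Junb (49.3 ± 1.25). Next came Egr1 (22.7 ± 1.23), Srf (18.8 ± 1.24), Jun (11.6 ± 1.29), Ier3 (7.95 ± 0.464), Fos (2.67 ± 0.345) and Fosl1 (0.851 ± 0.165). No neighbours in this order overlapped. After 96 h in 2i Egr1 stood at 0.0977 ± 0.0708 CPM per kb in 1A wild type, second to last, and its libraries overlapped those of Fosl1. In Eed knockout cells at 0 h the order was Jund (77.1 ± 9.67), Ier2 (68.6 ± 5.79), Junb (32.4 ± 3.51), Srf (19.4 ± 1.31), Jun (19.2 ± 0.559), Ier3 (11.4 ± 2.04), Egr1 (5.68 ± 0.442), Fos (5.46 ± 0.410) and Fosl1 (0.645 ± 0.319). There the pairs Jund and Ier2, Srf and Jun, and Egr1 and Fos overlapped.

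Egr1 encodes a zinc finger transcription factor that is a common readout of ERK activity (chromosome 18, 34994260 to 34998009, GRCm39, 2 exon blocks). The 3 Eed knockout libraries had 0.570, 1.03 and 0.391 CPM at 12 h, against 16.2, 17.3 and 18.9 CPM at 0 h. Ezh2 knockout cells had 0.977, 0.268 and 0 CPM at 12 h, against 38.5, 36.9 and 48.6 CPM at 0 h. In V19 wild type the libraries had 0.850, 1.02 and 0.561 CPM at 12 h, against 62.8, 57.2 and 65.6 CPM at 0 h, and in 1A wild type 0.631, 1.44 and 1.63 CPM at 12 h, against 65.7, 69.9 and 73.2 CPM at 0 h. The highest of the 48 libraries in 2i, at 2.50 CPM, lay below the lowest of the 12 libraries at 0 h. The changes at 12 h were -4.67 ± 0.48 in Eed knockout, -6.40 ± 0.46 in Ezh2 knockout, -6.25 ± 0.43 in V19 wild type and -5.83 ± 0.37 in 1A wild type, with adjusted p of 5.1e-17 or less.

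Egr1 stayed low at the later times. It averaged, in Eed knockout cells, 0.593 ± 0.195 CPM at 24 h, 1.001 ± 0.247 at 48 h and 0.929 ± 0.0526 at 96 h (SD, n = 3), and in 1A wild type 0.941 ± 0.272, 1.11 ± 1.20 and 0.30 ± 0.217 CPM. V19 wild type had 0.559 ± 0.298, 0.204 ± 0.192 and 0.440 ± 0.431 CPM at these times. In Ezh2 knockout cells no read of Egr1 was counted at 48 h in any of the 3 libraries, so the level was at least 252.7-fold lower than at 0 h when 3 reads over the group are taken as the floor. The same line had 3 reads in all at 24 h and 3 at 96 h, which gives levels 252-fold (95% counting interval 86.0 to 1225) and 283-fold (96.3 to 1373) below 0 h. With 2 reads at 48 h, V19 wild type was 347-fold lower (95.9 to 2872). These intervals are exact binomial ones and cover counting error only.

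**Figure D2:**
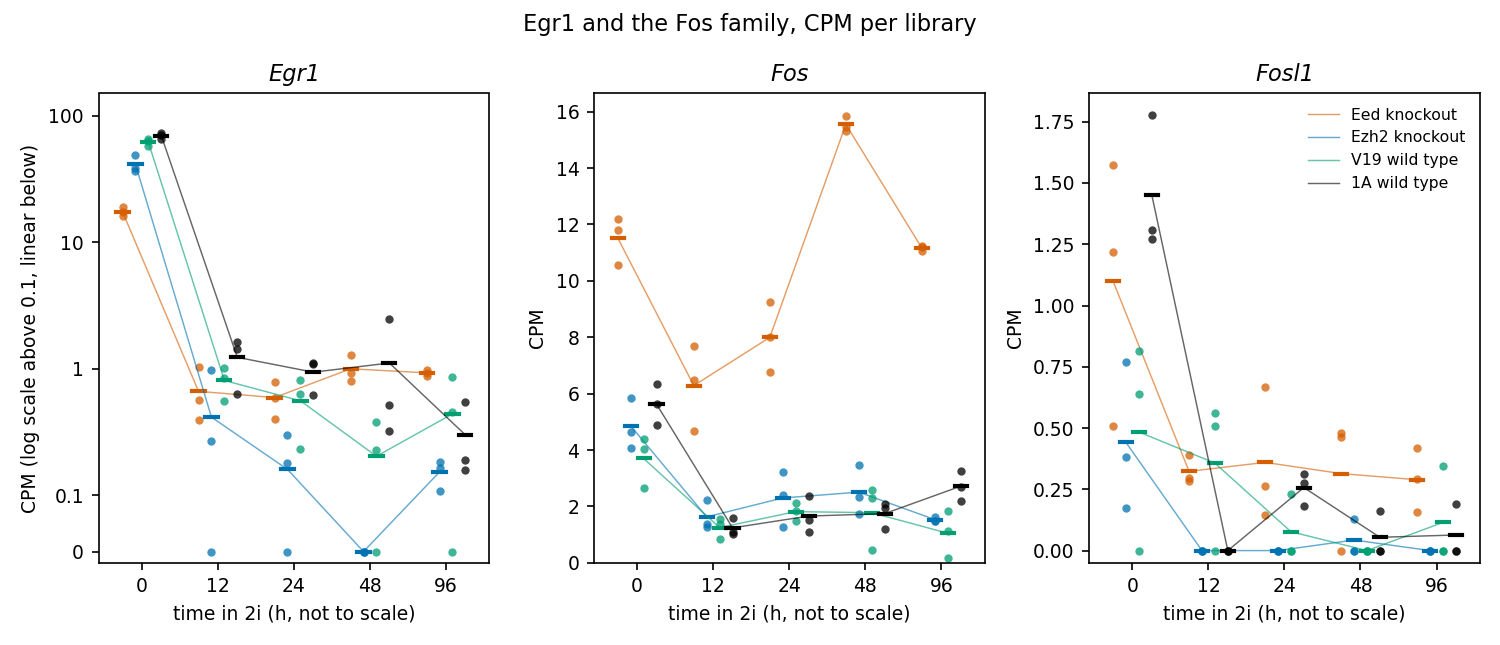
CPM of Egr1, Fos and Fosl1 in every library by time in 2i and line (points are libraries, short bars are means of 3 libraries joined by thin lines, times are not to scale, and the Egr1 axis is logarithmic above 0.1). Egr1 lies below 2.6 CPM in all 2i libraries, while Fos in Eed knockout cells is above the other lines at every time.

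Fos, the founding partner of Jun in AP-1 (chromosome 12, 85520664 to 85524048, 4 exon blocks), fell in all 4 lines at 12 h. Its libraries had 7.69, 6.47 and 4.69 CPM at 12 h in Eed knockout cells, against 10.5, 12.2 and 11.8 CPM at 0 h (-0.93 ± 0.22, adjusted p = 2.8e-04). The Ezh2 knockout libraries had 1.37, 2.24 and 1.28 CPM at 12 h, against 4.64, 4.07 and 5.86 CPM at 0 h (-1.50 ± 0.29). The V19 libraries had 1.36, 0.846 and 1.54 CPM at 12 h, against 4.39, 2.66 and 4.05 CPM at 0 h (-1.55 ± 0.38). 1A wild type had 1.10, 1.601 and 1.02 CPM at 12 h, against 5.62, 4.90 and 6.36 CPM at 0 h (-2.13 ± 0.37). The 12 h and 0 h libraries did not overlap in any of the lines.

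Later, Fos took different courses in the lines. Its Eed knockout mean over the 5 times was 11.5, 6.29, 7.99, 15.5 and 11.2 CPM, and the 96 h value was not called against 0 h (-0.04 ± 0.19, adjusted p = 0.88). It was called higher at 48 h in this line (0.43 ± 0.19, adjusted p = 0.047), but the call was lost without any 1 of the 6 libraries compared (adjusted p 0.059 to 0.15). RLE factors, both other filters, DESeq2 and a replicate block also lost it, and the RUV values put it at -0.41 (adjusted p = 0.48). At 96 h Fos was lower in Ezh2 knockout (1.54 ± 0.0886 CPM at 96 h, -1.62 ± 0.33), in V19 wild type (1.05 ± 0.837 CPM, -1.92 ± 0.45) and in 1A wild type (2.72 ± 0.520 CPM, -1.03 ± 0.29). The calls at 24 h in Eed knockout cells (-0.52 ± 0.19) and at 24 and 48 h in V19 wild type (-1.07 ± 0.36 and -1.13 ± 0.41) were lost without single libraries. These were Eed knockout 0 h replicates 2 and 3 and 24 h replicates 1 and 3 (adjusted p 0.060 to 0.099). In V19 wild type they were V19 0 h replicate 1 (0.073 at 24 h and 0.065 at 48 h), V19 24 h replicate 1 (0.076) and V19 48 h replicate 1, without which the change was -0.60 (0.21).

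Fosl1 encodes Fra-1, a Fos family protein without the transactivation domain of Fos (chromosome 19, 5497726 to 5505966, 4 exon blocks). It was barely detected. Eed knockout cells had at most 0.669 CPM in any 2i library, against 1.57, 1.22 and 0.506 CPM at 0 h. It had no read in the 3 libraries of 1A wild type at 12 h, against 1.78, 1.31 and 1.27 CPM at 0 h, which makes it at least 8.68-fold lower with a floor of 3 reads over the group. Ezh2 knockout cells had no read at 12, 24 and 96 h, against 0.172, 0.382 and 0.771 CPM at 0 h, and V19 wild type had 0.510, 0 and 0.561 CPM at 12 h, against 0.813, 0 and 0.639 CPM at 0 h, with overlapping libraries. Averaged over the lines, the 12 h mean was below that at 0 h (difference -0.70 CPM, two-sided exact permutation test within lines, p = 9.4e-04) and so was the 96 h mean (difference -0.75 CPM, exact permutation p = 1.5e-04), each lower in 4 of 4 lines. This test was chosen after the data were seen. In single lines, edgeR's test without the filter called Fosl1 lower at 12 h in 1A wild type (adjusted p = 3.0e-06) and Ezh2 knockout (0.0028). It did not do so in Eed knockout (-1.69, 0.068) or V19 wild type (-0.42, 0.98). At 96 h only V19 wild type was not called (-1.82, 0.28), and the Eed knockout call (-1.84, 0.045) was not made by DESeq2 (0.11). Ccdc85b lies on the other strand of the same interval and had 12171 reads in all libraries. The kit does not mark strand, so reads of both genes cannot be told apart where they overlap.

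The Jun family supplies the DNA-binding partners of AP-1, and its 3 genes each consist of a single exon. They took 3 different courses. Junb, which holds back Jun in many settings and is itself a growth factor target, fell. Jund, the member of the family that resting cells keep, rose. Jun, the strongest activator of the family, changed differently between lines.

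Junb (chromosome 8, 85703538 to 85705377) had 46.7, 49.0 and 46.4 CPM at 12 h in Eed knockout cells, against 65.2, 61.0 and 52.5 CPM at 0 h (-0.33 ± 0.11, adjusted p = 0.013). This call was lost without 0 h replicate 1 (-0.26, adjusted p = 0.089), without the 5 libraries that stood apart (-0.27, 0.15) and on the RUV values (-0.28, 0.071). In Ezh2 knockout cells it had 27.8, 29.9 and 23.7 CPM at 12 h, against 59.2, 54.6 and 48.7 CPM at 0 h (-0.98 ± 0.11). V19 wild type had 46.9, 54.5 and 50.9 CPM at 12 h, against 78.7, 82.2 and 79.8 CPM at 0 h (-0.66 ± 0.11). The libraries of 1A wild type had 51.0, 50.9 and 48.8 CPM at 12 h, against 89.1, 93.3 and 89.5 CPM at 0 h (-0.85 ± 0.11). The libraries did not overlap in any line. By 96 h 1A wild type had gone lower, to 25.3 ± 3.17 CPM (-1.85 ± 0.12), as had V19 wild type (28.7 ± 5.43 CPM, -1.49 ± 0.12), and Ezh2 knockout cells were at 24.6 ± 1.95 CPM (-1.13 ± 0.12). Eed knockout cells were at 55.996 ± 1.98 CPM, which was not called against 0 h (-0.09 ± 0.11, adjusted p = 0.56). Their call at 24 h (-0.32 ± 0.11) was lost without 0 h replicate 1 (adjusted p = 0.11), without 24 h replicate 2 (0.077) and with no filter (0.069).

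Jund (chromosome 8, 71150389 to 71153265) was the member that went up in every line at 12 h. Eed knockout cells had 684, 445 and 322 CPM at 12 h, against 241, 235 and 189.9 CPM at 0 h (1.12 ± 0.14, adjusted p = 8.0e-09), and the highest and the lowest of these 12 h values come from libraries that stood apart. The Ezh2 knockout libraries had 219, 204 and 265 CPM at 12 h, against 168, 168 and 164 CPM at 0 h (0.46 ± 0.14). The V19 libraries had 344, 357 and 351 CPM at 12 h, against 218, 222 and 222 CPM at 0 h (0.67 ± 0.14). 1A wild type had 212, 218 and 221 CPM at 12 h, against 157, 186 and 153 CPM at 0 h (0.39 ± 0.15, adjusted p = 0.026). In all lines the 12 h libraries were above the 0 h ones. In 1A wild type the 12 h call was lost without 0 h replicates 1 or 3 or 12 h replicates 2 or 3 (adjusted p 0.0502 to 0.0996), and in Ezh2 knockout without 12 h replicate 3 (0.35, 0.062).

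By 96 h Jund was called higher in 1 line only, 1A wild type. V19 wild type went through a mean of 221, 351, 359.5, 482 and 236 CPM over the 5 times, and the 96 h value was not called against 0 h (0.09 ± 0.14, adjusted p = 0.63). Of the V19 48 h libraries, replicates 2 (527 CPM) and 3 (428 CPM) stood apart, and replicate 1 had 492 CPM. In Eed knockout cells the course was 222, 484, 398, 443 and 267 CPM, with 0.27 ± 0.14 at 96 h (adjusted p = 0.14), and in Ezh2 knockout cells 166, 229.5, 224, 187 and 157 CPM, with -0.08 ± 0.15 (0.69). 1A wild type had 165, 217, 234, 292 and 222 CPM, and 96 h was called higher (0.42 ± 0.15, adjusted p = 0.014), a call lost without 0 h replicates 1 or 3 or 96 h replicate 2 (0.052 to 0.061). The 24 h calls were lost without 24 h replicate 2 in Ezh2 knockout (0.36, 0.063; also on the RUV values, 0.055) and without 24 h replicate 3 in 1A wild type (0.37, 0.053). The Eed knockout value at 96 h was called with no filter (0.049), with the 2 groups fitted alone (0.0091) and without the libraries that stood apart (0.033).

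Jun (chromosome 4, 94937273 to 94940459) was not called at 12 h in Ezh2 knockout (-0.17 ± 0.14), V19 wild type (0.14 ± 0.13) or 1A wild type (-0.24 ± 0.12). 1A wild type then had 14.3, 18.1 and 15.4 CPM at 96 h, against 33.3, 36.4 and 41.5 CPM at 0 h (-1.21 ± 0.13, adjusted p = 1.7e-11). Jun had 9.65, 12.4 and 12.6 CPM at 96 h in V19 wild type, against 20.003, 22.1 and 21.3 CPM at 0 h (-0.86 ± 0.15). Both sets of libraries lay apart. Ezh2 knockout cells had 10.7, 11.3 and 11.9 CPM at 96 h, against 14.1, 11.6 and 15.1 CPM at 0 h, with overlap and no call (-0.25 ± 0.14, adjusted p = 0.16), but a call on the RUV values (-0.44, 0.0069). Eed knockout libraries of Jun had 99.4, 100.3 and 84.9 CPM at 24 h, against 63.1, 59.6 and 60.9 CPM at 0 h (0.63 ± 0.10, adjusted p = 1.2e-06). The mean was 57.3 ± 3.34 CPM at 96 h (-0.10 ± 0.11, adjusted p = 0.51).

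Several of the calls of Jun depended on a setting. For Eed knockout cells the 12 h call (0.30 ± 0.10, adjusted p = 0.015) was lost without 12 h replicate 3 (0.24, 0.088), with no filter (0.095), with a mean of at least 1 CPM required (0.062) and without the 5 libraries that stood apart (0.22, 0.20). On the RUV values the Eed knockout changes were 0.16 at 12 h, 0.15 at 24 h and -0.28 at 48 h, none of them called, against 0.47 ± 0.10 at 48 h in counts, and -0.58 at 96 h was called (adjusted p = 6.4e-04). The V19 calls at 24 h (-0.44 ± 0.14) and 48 h (-0.42 ± 0.15) were lost without 24 h replicate 1 (-0.33, 0.0996) and 48 h replicate 2 (-0.31, 0.10), and that at 48 h also without the libraries that stood apart (-0.31, 0.24). In 1A wild type the 12 h change was called without 12 h replicate 2 (-0.33, 0.049).

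**Figure D3:**
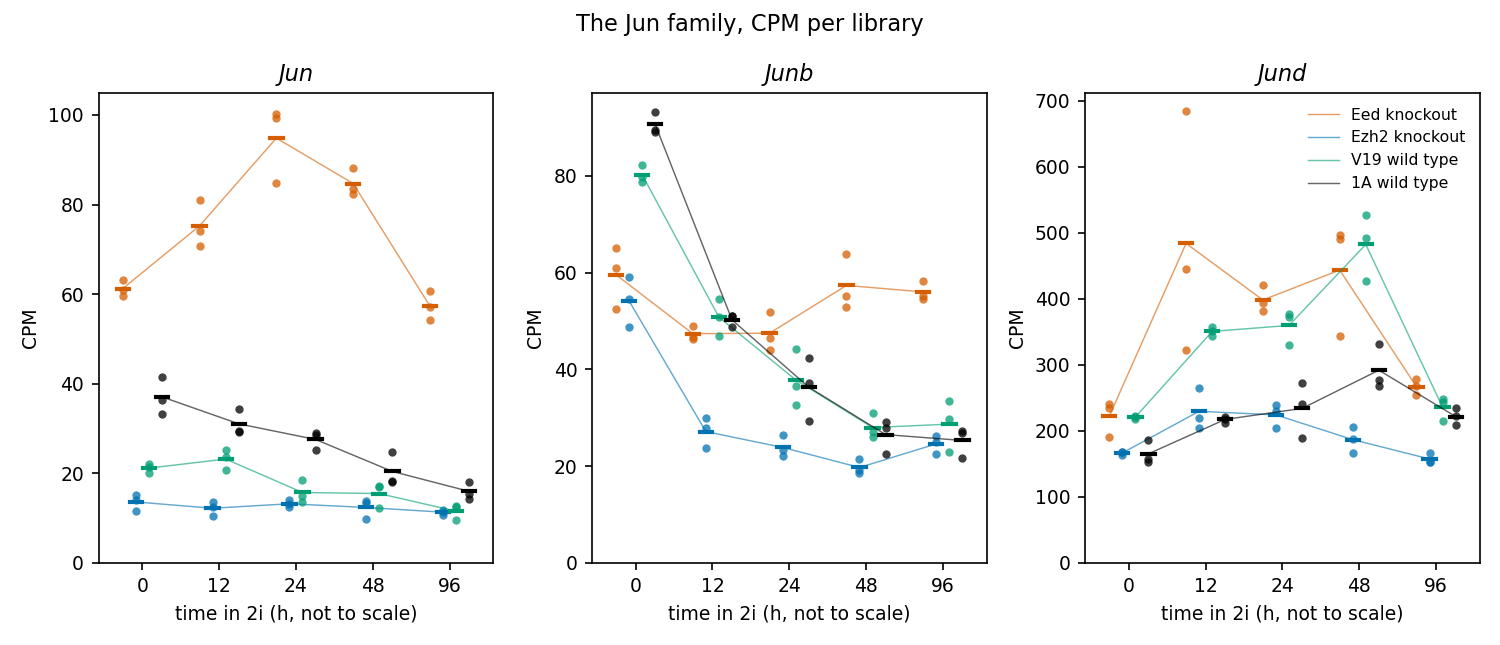
CPM of Jun, Junb and Jund in every library by time in 2i and line (points are libraries, short bars are means of 3 libraries joined by thin lines, times are not to scale, and axes start at 0). Junb falls in the wild-type lines and Ezh2 knockout cells and Jund peaks between 12 and 48 h, while Jun in Eed knockout cells lies above the other lines at all times.

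The courses add up to a shift in the make-up of Jun family transcripts, computed per kb of exon after the values were seen and given as a description. Jund made up 67.1 ± 1.04% of the family's CPM per kb at 12 h in 1A wild type (SD, n = 3), against 48.4 ± 2.37% at 0 h, and 80.5 ± 1.08% at 96 h. Junb made up 14.3 ± 1.05% at 96 h in this line, against 41.7 ± 1.49% at 0 h. In V19 wild type Jund reached 89.3 ± 1.01% at 48 h, against 60.4 ± 0.480% at 0 h, and in Ezh2 knockout cells 82.0 ± 1.33% at 24 h, against 63.2 ± 1.60%. Of the V19 48 h libraries, replicates 2 (89.9%) and 3 (88.1%) stood apart, and replicate 1 had 89.8%. The share in Eed knockout cells was 76.0 ± 7.08% at 12 h and 65.7 ± 1.92% at 96 h, against 59.8 ± 1.59% at 0 h. The summed level of the family was 95.8 CPM per kb at 96 h in 1A wild type, against 118 at 0 h. It was 141 in Eed knockout cells, against 129.

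**Figure D4:**
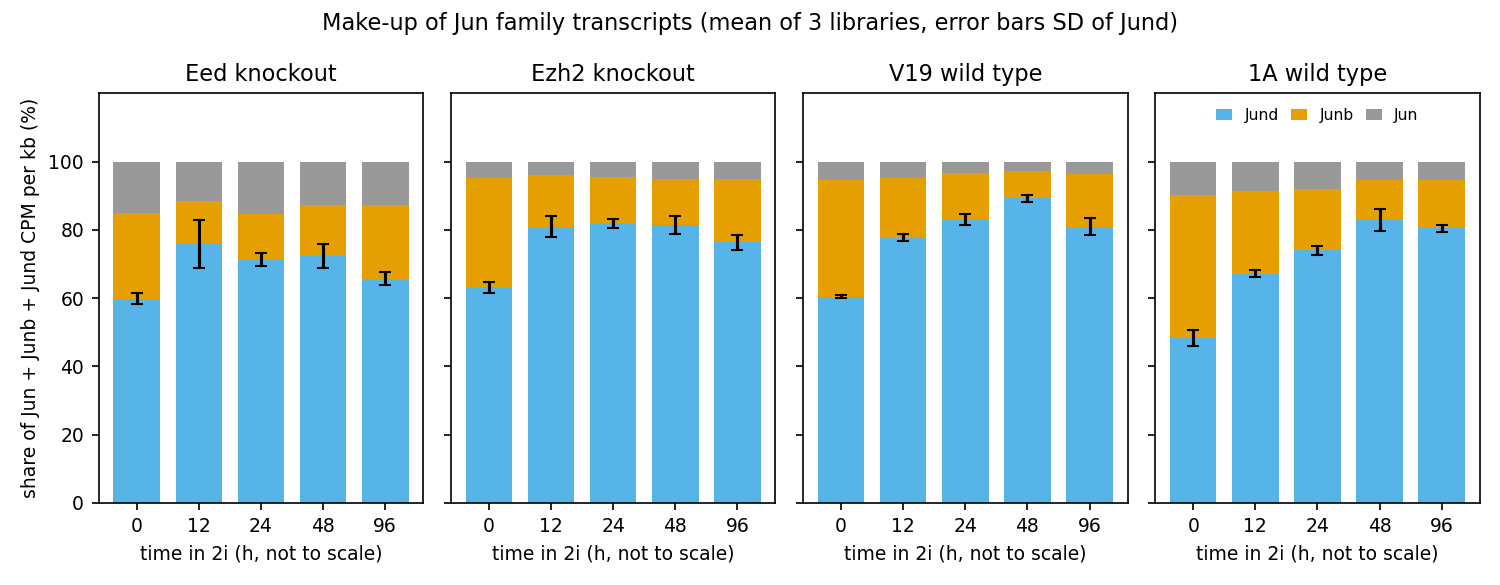
Share of Jund, Junb and Jun in the summed CPM per kb of the 3 genes, by time in 2i for each line (bars are means of 3 libraries, error bars are the SD of the Jund share, and times are not to scale). The Jund share of 1A wild type is 80.5% at 96 h and that of Eed knockout cells 65.7%.

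Ier2 and Ier3 are immediate early genes outside the AP-1 and Egr families. Ier2 (chromosome 8, 85387960 to 85389481, 1 exon) encodes a short-lived nuclear protein, and Ier3 (chromosome 17, 36132605 to 36133803, 2 exon blocks), also called IEX-1, a protein tied to cell survival and ERK signalling. Ier2 was lower at 12 h in 3 lines. Ezh2 knockout cells had 161, 150.4 and 178 CPM at 12 h, against 221, 215 and 218 CPM at 0 h (-0.42 ± 0.14, adjusted p = 0.012). V19 wild type had 222, 225 and 241 CPM at 12 h, against 373, 366 and 343 CPM at 0 h (-0.65 ± 0.14). The libraries of 1A wild type had 153, 142 and 157 CPM at 12 h, against 249.6, 288 and 235 CPM at 0 h (-0.78 ± 0.15). No 12 h library of these lines reached a 0 h one.

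The Eed knockout libraries of Ier2 had 128, 88.1 and 65.5 CPM at 12 h, against 109, 109.9 and 94.2 CPM at 0 h, with overlap and no call (-0.18 ± 0.15, adjusted p = 0.34). Without the highest library, 12 h replicate 1, which stood apart, the change was called (-0.43, adjusted p = 0.018). Ier2 was called lower in this line at 24 h (-0.48 ± 0.15) and 48 h (-0.55 ± 0.15), but not on the RUV values (-0.20 and -0.18), and the 24 h call was lost without 24 h replicate 1 (-0.39, 0.063). At 96 h Ier2 was lower in V19 wild type (219 ± 18.3 CPM, -0.72 ± 0.14) and in Ezh2 knockout cells (166 ± 21.9 CPM, -0.40 ± 0.14, adjusted p = 0.023). The Ezh2 knockout call was lost without 0 h replicate 1 (0.054), 96 h replicates 2 (0.064) or 3 (0.13) or on the RUV values (0.066). 1A wild type was at 209 ± 10.03 CPM (-0.30 ± 0.14, adjusted p = 0.079), and the change was called with no filter (0.016), with the 2 groups fitted alone (5.8e-04) and without the libraries that stood apart (0.0063). Likewise the 24 h change in 1A wild type (-0.33 ± 0.14, 0.052) was called without 0 h replicate 3 (0.043) or 24 h replicate 3 (0.021), and that at 48 h (-0.29 ± 0.15) without 48 h replicate 3 (0.047). Other settings called them too, at 24 h RLE scaling (0.042), no filter (0.0074) and a filter at a mean of 1 CPM (0.034), and at 48 h no filter (0.017), the 2 groups fitted alone (0.0063) and leaving out the libraries that stood apart (0.0077). The 12 h call in Ezh2 knockout was lost without 12 h replicate 2 (0.056) and on the RUV values (0.083), and the V19 call at 48 h (-0.50 ± 0.14) without 48 h replicate 3 (-0.33, 0.069).

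Ier3 was lower at 12 h in the same 3 lines and not called in Eed knockout cells, where it had 9.69, 13.1 and 13.4 CPM at 12 h, against 11.3, 15.0 and 10.97 CPM at 0 h (0.00 ± 0.17, adjusted p = 1). Ezh2 knockout cells had 6.84, 3.58 and 4.48 CPM at 12 h, against 7.05, 8.27 and 7.09 CPM at 0 h (-0.59 ± 0.20). In V19 wild type Ier3 had 3.74, 3.55 and 5.47 CPM at 12 h, against 5.85, 9.02 and 6.60 CPM at 0 h (-0.71 ± 0.23). It had 4.26, 4.64 and 4.47 CPM at 12 h in 1A wild type, against 9.18, 8.17 and 8.65 CPM at 0 h (-0.96 ± 0.22, adjusted p = 3.2e-04). The libraries of the 2 times did not overlap in these lines. The Ezh2 knockout call was lost without 0 h replicate 2 (0.067) or 12 h replicate 2 (-0.36, 0.15) and with the 2 groups fitted alone (0.053), and the V19 call without 0 h replicate 2 (0.11) or 12 h replicate 2 (0.0515). At 96 h Ier3 was again lower in Ezh2 knockout (-0.94 ± 0.22), V19 wild type (-0.70 ± 0.24; 0.12 without 0 h replicate 2) and 1A wild type (-1.01 ± 0.23) and not called in Eed knockout cells (0.20 ± 0.16). The V19 change at 48 h (-0.64 ± 0.26, adjusted p = 0.030) was not called without 0 h replicate 2 (0.18), 48 h replicate 1 (0.084) or 48 h replicate 2 (0.084). The Ezh2 knockout change at 24 h (-0.34 ± 0.20, 0.17) was called without 24 h replicate 3 (-0.73, 0.0057) and on the RUV values (-0.57, 0.031).

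**Figure D5:**
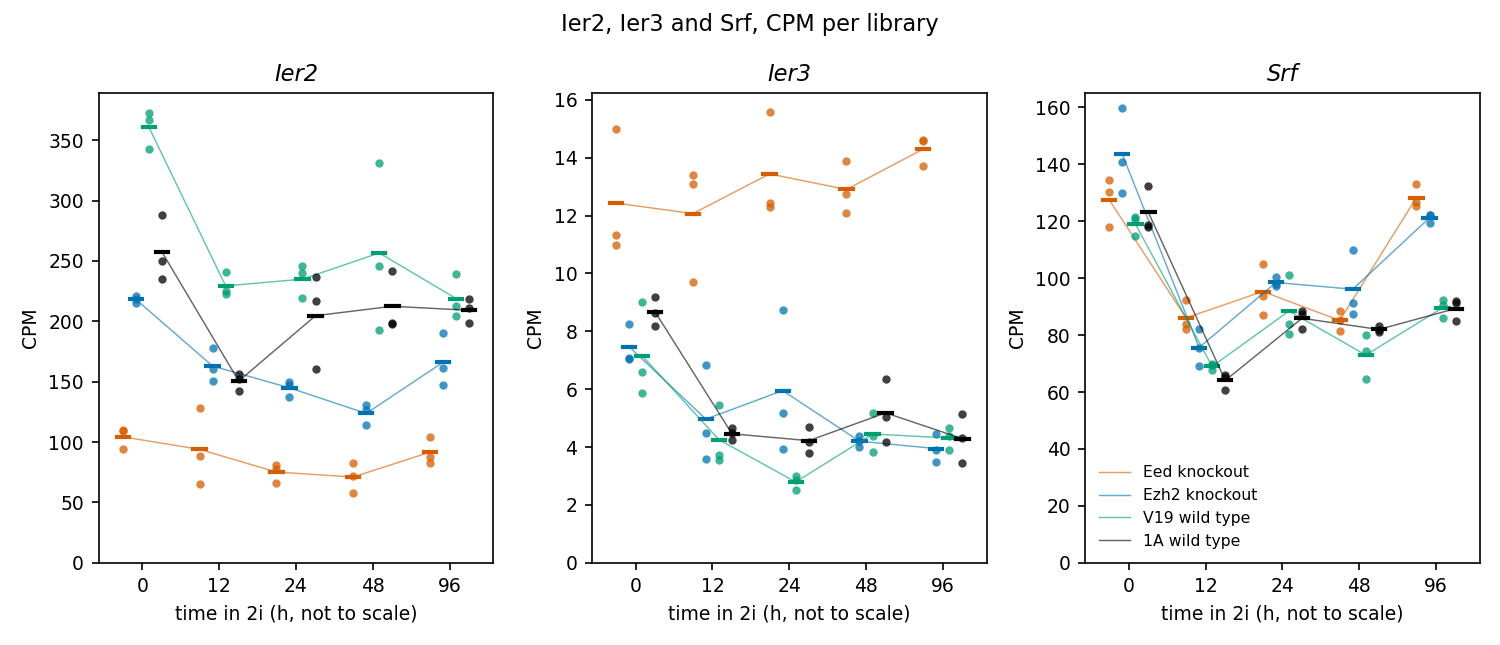
CPM of Ier2, Ier3 and Srf in every library by time in 2i and line (points are libraries, short bars are means of 3 libraries joined by thin lines, times are not to scale, and axes start at 0). The mean of Srf is lowest at 12 h in the lines other than Eed knockout and higher again at 96 h in all 4, and Eed knockout cells have the lowest Ier2 and the highest Ier3.

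Srf is the factor through which the ternary complex factors and, on actin genes, the myocardin-related factors act (chromosome 17, 46857764 to 46869194, 8 exon blocks, with the microRNA gene Mir6976, 1 read in all libraries, inside it). Its own upstream sequence carries 2 CArG boxes and an ETS core. Eed knockout cells had 92.3, 82.0 and 83.9 CPM at 12 h, against 130.3, 134 and 118 CPM at 0 h (-0.57 ± 0.08, adjusted p = 1.8e-07). The Ezh2 knockout libraries had 75.5, 69.2 and 82.1 CPM at 12 h, against 141, 129.7 and 159.9 CPM at 0 h (-0.93 ± 0.08). V19 wild type had 69.7, 67.7 and 69.5 CPM at 12 h, against 122, 115 and 121 CPM at 0 h (-0.79 ± 0.09). The libraries of 1A wild type had 60.7, 65.3 and 66.1 CPM at 12 h, against 118, 132 and 119 CPM at 0 h (-0.94 ± 0.09). Replicates of the 2 times lay well apart in each line.

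Unlike Egr1, Srf came back in part. From 12 to 96 h it was higher in all 4 lines, with 0.58 ± 0.08 in Eed knockout (125, 127 and 133 CPM at 96 h) and 0.68 ± 0.08 in Ezh2 knockout (119, 122 and 122 CPM). The change was 0.38 ± 0.09 in V19 wild type (90.5, 92.2 and 86.0 CPM) and 0.48 ± 0.09 in 1A wild type (84.8, 91.1 and 92.0 CPM), and all 4 adjusted p were 3.3e-04 or less. Relative to 0 h it remained lower at 96 h in V19 wild type (-0.41 ± 0.09), 1A wild type (-0.46 ± 0.08) and Ezh2 knockout cells (-0.24 ± 0.08). The change in Ezh2 knockout cells was not called without 0 h replicate 3 (-0.16, adjusted p = 0.16) or with no filter (0.085). For Eed knockout cells 96 h was not called against 0 h (0.01 ± 0.08, adjusted p = 0.94). At 24 and 48 h Srf was called lower in every line, between -0.42 and -0.71.

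Other members also moved between 12 and 96 h. In Eed knockout cells 2 were higher and 2 lower at 96 h than at 12 h (51.5% of all genes called), in Ezh2 knockout cells 1 and 1 (40.3%), in V19 wild type 1 and 3 (48.3%) and in 1A wild type 3 and 3 (42.6%). The members called were thus near the share of all genes in Eed knockout and V19 wild type. They were below it in Ezh2 knockout and above it in 1A wild type. Jund was lower at 96 h than at 12 h in Eed knockout (-0.85 ± 0.14), Ezh2 knockout (-0.54 ± 0.14) and V19 wild type (-0.57 ± 0.14) but not called in 1A wild type (0.03 ± 0.14). Jun and Junb were lower in V19 wild type (-0.997 ± 0.14 and -0.83 ± 0.12) and in 1A wild type (-0.97 ± 0.13 and -0.995 ± 0.12), and Jun was lower in Eed knockout cells (-0.39 ± 0.10). Fos was higher in Eed knockout (0.89 ± 0.21) and in 1A wild type (1.10 ± 0.40), on the RUV values in neither (0.45 and 0.88, adjusted p 0.40 and 0.083). Ier2 was higher in 1A wild type (0.47 ± 0.15). Egr1 was lower in 1A wild type (-1.96 ± 0.79, adjusted p = 0.018), near the floor with 21 reads over the group at 12 h and 5 at 96 h. Calls were lost there for Fos without 12 h replicates 1 or 3 or 96 h replicate 2 (0.065 to 0.076), and for Egr1 without 12 h replicates 2 or 3 or 96 h replicates 1 or 2 (0.060 to 0.086). Ier3 in Ezh2 knockout (-0.35 ± 0.22) was called without 12 h replicate 2 (-0.60, 0.037).

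The lines were then compared before 2i. Of the 8 tested members 4 were higher and 3 lower in Eed knockout than in 1A wild type at 0 h (49.6% of all genes called), 1 higher and 3 lower in Ezh2 knockout (22.8%), and 1 higher and 1 lower in V19 wild type (10.5%). Egr1 was lower in Eed knockout cells, at 17.5 ± 1.36 CPM against 69.6 ± 3.77 CPM in 1A wild type (-1.99 ± 0.16). It was lower in Ezh2 knockout cells, at 41.3 ± 6.33 CPM (-0.75 ± 0.14, not called on the RUV values with -0.74, adjusted p = 0.38). Junb was lower in both knockouts (-0.61 ± 0.11 in Eed, -0.74 ± 0.11 in Ezh2). Jun was higher in Eed knockout cells, at 61.2 ± 1.78 CPM against 37.1 ± 4.11 CPM (0.74 ± 0.11), and lower in Ezh2 knockout cells, at 13.6 ± 1.82 CPM (-1.44 ± 0.13), and in V19 wild type, at 21.1 ± 1.07 CPM (-0.80 ± 0.12). In Eed knockout cells Fos (1.05 ± 0.22), Ier3 (0.51 ± 0.18) and Jund (0.42 ± 0.15) were higher and Ier2 was lower (-1.30 ± 0.15). Srf was not called in Eed knockout cells (0.05 ± 0.08). It was higher in Ezh2 knockout cells (0.22 ± 0.08, adjusted p = 0.047), and Ier2 was higher in V19 wild type (0.49 ± 0.14, adjusted p = 0.018).

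Several differences at 0 h rested on a setting or a library. On the RUV values the Eed knockout differences were -0.79 for Fos (adjusted p = 0.19), -0.90 for Jun (7.6e-07) and -0.61 for Ier3 (0.040), all with the sign turned, and 0.02 for Jund and -0.13 for Ier2, neither called. The Ier3 call was lost without 1A 0 h replicate 2 (0.061) or Eed knockout 0 h replicate 2 (0.36, 0.14), and the Jund call without 1A replicate 3 (0.057) or Eed knockout replicate 1 (0.064). The Srf call in Ezh2 knockout was lost without Ezh2 knockout replicates 1 or 3 or 1A replicates 1 or 3 (0.071 to 0.33, 0.13 on the log2 scale at the least), and with other scalings, filters and DESeq2. The Ier2 call in V19 wild type was lost without replicates 1 or 3 of 1A or 1 or 2 of V19 (0.064 to 0.10) and on the RUV values (0.32, 0.20). Jund in V19 wild type (0.42 ± 0.15, adjusted p = 0.057) was called without 1A replicate 2 (0.50, 0.049), with no filter (0.39, 0.0060), with the groups compared fitted alone (0.42, 0.00035), on the RUV values (0.49, 0.027) and without the libraries that stood apart (0.41, 0.0037). Ier2 in Ezh2 knockout (-0.24) was called with the groups compared fitted alone (-0.25, 0.0019).

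At 96 h, 5 members were higher and 1 lower in Eed knockout than in 1A wild type (55.3% of all genes called). Fos had 11.2 ± 0.0888 CPM in Eed knockout cells against 2.72 ± 0.520 CPM in 1A wild type (2.03 ± 0.27), Jun 57.3 ± 3.34 CPM against 15.95 ± 1.95 CPM (1.85 ± 0.12), and Ier3 14.3 ± 0.509 CPM against 4.29 ± 0.853 CPM (1.73 ± 0.21). Junb (1.15 ± 0.12) and Srf (0.52 ± 0.08) were higher too and Ier2 was lower (-1.19 ± 0.15), while Egr1 was not called (1.59 ± 0.80, adjusted p = 0.0501). On the RUV values Fos (-0.20), Jun (-0.09) and Ier2 (0.17) had the sign turned and were not called, nor was Ier3 (0.37). Egr1 was called on them (1.78, 0.0088), with RLE scaling (0.048), with a filter at a mean of 1 CPM (0.0499), with a replicate block (0.047) and without 1A 96 h replicate 3 (2.29, 0.030). In Ezh2 knockout cells Srf was higher (0.44 ± 0.08) and Jun (-0.48 ± 0.14) and Jund (-0.49 ± 0.14) lower than in 1A wild type (13.2% of all genes called), and V19 wild type differed in Fos (-1.45 ± 0.46, 7.45% of all genes called). The calls of Jun were lost without Ezh2 knockout replicate 1 (0.064) or 1A replicate 2 (0.12) and with no filter (0.060). Those of Jund were lost without Ezh2 knockout replicates 2 or 3 or 1A replicate 2 (0.052 to 0.064), and that of Fos in V19 wild type without 1A replicates 1 or 2 or V19 replicates 2 or 3 (0.054 to 0.27, with -0.88 in the last case). Jun in V19 wild type (-0.45 ± 0.15, 0.0525) was called without 1A replicate 1 (-0.53, 0.049), with RLE scaling (0.047), a replicate block (0.049), the groups compared fitted alone (0.038) and without the libraries that stood apart (0.041). With no filter, the groups compared fitted alone and without those libraries, calls were gained for Jund in Eed knockout (0.25 to 0.28, adjusted p 0.0017 to 0.025) and for Ier2 in Ezh2 knockout (-0.35 to -0.34, 0.0074 to 0.031).

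Markers of other cell types moved with the Eed knockout line. Of all genes, 26.4% were called higher and 23.3% lower in Eed knockout than in 1A wild type at 0 h, and 30.9% and 24.4% at 96 h. In Ezh2 knockout at 0 h 11.9% were called higher and 10.9% lower than in 1A wild type. The 12 markers of primitive endoderm summed to 5096 to 5364 CPM in Eed knockout libraries at 0 h and 710.4 to 780.5 CPM in 1A wild type, and 12 of 12 were called higher. The 10 trophoblast markers summed to 1711 to 2243 CPM in Eed knockout and 286 to 339 CPM in 1A wild type, with 10 of 10 higher. At 96 h primitive endoderm markers summed to 1924 to 2118 CPM in Eed knockout and 831 to 932 CPM in 1A wild type, and trophoblast markers to 2998 to 3114 CPM in Eed knockout and 372 to 449 CPM in 1A wild type, with 12 of 12 and 10 of 10 higher. The 12 markers of fibroblasts and feeders stayed low, with sums of 45.9 to 49.3 CPM in Eed knockout and 14.4 to 20.3 CPM in 1A wild type at 0 h (7 of 8 tested higher, 1 lower), Lum and Postn being at 0 in 1A wild type. The 8 neural markers summed to 125 to 133 CPM in Eed knockout and 153 to 171 CPM in 1A wild type at 0 h (0 of 5 tested higher, 3 lower). The 7 mesoderm markers summed to 75.4 to 83.2 CPM in Eed knockout and 10.2 to 11.4 CPM in 1A wild type (2 of 3 tested higher), with T and Msgn1 at 0 in both lines. In Ezh2 knockout cells primitive endoderm markers summed to 1114 to 1207 CPM at 0 h, with 10 of 12 higher, and trophoblast markers to 198 to 204 CPM, against 286 to 339 CPM in 1A wild type, with 4 of 10 higher and 3 lower.

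These sums also moved within the course. At 12 h against 0 h 25.2% of all genes were called higher and 25.2% lower in Eed knockout, and 20% and 20.8% in 1A wild type. In Eed knockout libraries primitive endoderm markers summed to 2896 to 3259 CPM at 12 h, against 5096 to 5364 CPM at 0 h, with 0 of 12 called higher and 10 lower. The same sum in 1A wild type was 564 to 593 CPM at 12 h, against 710.4 to 780.5 CPM at 0 h, with 0 higher and 5 lower. Trophoblast markers in Eed knockout summed to 1711 to 2243, 3214 to 3414, 4635 to 5105, 5281 to 5961 and 2998 to 3114 CPM over the 5 times, with 6 of 10 higher and 3 lower at 12 h. Those of 1A wild type summed to 396 to 407 CPM at 12 h, against 286 to 339 CPM at 0 h, with 4 higher and 1 lower, and to 829.5 to 866 CPM at 48 h. The part of these cells in the members' changes over time, in the differences between lines and in the differences of the response was not tested.

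Whether the response itself differed from that of 1A wild type was tested as the difference of the 2 fold changes. At 12 h 6 members had a more positive change in Eed knockout cells (11.2% of all genes called) and none in Ezh2 knockout (2.91%) or V19 wild type (0.119%). At an unadjusted p under 0.05 the counts were 0 in Ezh2 knockout and 1 in V19 wild type, Jun, and DESeq2 called 0 in both. The differences were 1.20 ± 0.43 for Fos, 0.54 ± 0.16 for Jun, 0.52 ± 0.16 for Junb, 0.72 ± 0.20 for Jund, 0.96 ± 0.28 for Ier3 and 0.37 ± 0.12 for Srf. Egr1 (1.16 ± 0.60, adjusted p = 0.25) and Ier2 (0.60 ± 0.21, 0.055) were not called. Ier2 was called with no filter (0.57, 0.0061), with DESeq2 (0.63, 0.040), on the RUV values (0.76, 0.014) and without the libraries that stood apart (0.53, 0.036). The marker sums of primitive endoderm and trophoblast given above moved over the same 12 h in both lines. At 96 h 6 members had a more positive change in Eed knockout (27.3% of all genes called), namely Egr1 (3.59 ± 0.81), Fos (0.99 ± 0.35), Jun (1.11 ± 0.17), Junb (1.76 ± 0.16), Ier3 (1.21 ± 0.28) and Srf (0.47 ± 0.12). For Egr1 the lines already differed at 0 h, with 17.5 CPM in Eed knockout and 69.6 CPM in 1A wild type. At 96 h Egr1 was near the floor in both, with 19 reads over the Eed knockout libraries and 5 over those of 1A wild type. The difference between the lines at 96 h was not called (1.59, adjusted p = 0.0501). In Ezh2 knockout the change was more positive for 2 members (12.2%), Jun (0.96 ± 0.19) and Junb (0.71 ± 0.17). Both already started lower in this line at 0 h. Jun then had 13.6 CPM, against 37.1 CPM in 1A wild type, and Junb 54.1 CPM against 90.6 CPM. At 96 h Jun had 11.3 CPM against 15.95 CPM, and Junb 24.6 CPM against 25.3 CPM, so neither mean was higher in Ezh2 knockout. Jund in Ezh2 knockout (-0.50 ± 0.21, adjusted p = 0.11) was called with no filter (-0.51, 0.015), with the groups compared fitted alone (-0.51, 0.00096) and without the libraries that stood apart (-0.52, 0.0083). V19 wild type had none (1.68%), with 2 at an unadjusted p under 0.05, Junb and Ier2, 0 with DESeq2 and 2 with the groups compared fitted alone, Jund (-0.33, 0.045) and Ier2 (-0.42, 0.010).

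The calls of these differences at 12 h depended on single libraries and settings. The call of Fos (adjusted p = 0.049) was lost without any of 11 of the 12 libraries (0.051 to 0.14), with no filter (0.072), with at least 1 CPM on average required (0.056), with a replicate block (0.057) and on the RUV values (0.28). That of Jund fell to 0.39 without Eed knockout 12 h replicate 1 (0.19) and was also lost without 1A 0 h replicate 2 (0.057) or Eed knockout 0 h replicate 3 (0.0575) and with the 4 groups fitted alone (0.074). That of Jun was lost without 1A 0 h replicate 3 (0.0615) or 1A 12 h replicate 1 (0.056), with no filter (0.074), on the RUV values (0.18) and without the libraries that stood apart (0.44, 0.096). That of Junb was lost without 1A 0 h replicate 2, 1A 12 h replicate 3, Eed knockout 0 h replicate 3 or Eed knockout 12 h replicate 2 (0.052 to 0.090) and with no filter (0.0675). That of Srf was lost without 1A 0 h replicate 2, 1A 12 h replicates 1 or 2, Eed knockout 0 h replicate 3 or Eed knockout 12 h replicate 1 (0.051 to 0.11), with no filter (0.28), with a filter at a mean of 1 CPM (0.067) and without the libraries that stood apart (0.31, 0.15). Ier3 lost its call without 1A 0 h replicate 1 (0.052) and on the RUV values (0.086). Ier2 gained one without 1A 0 h replicate 3 (0.66, 0.047) or Eed knockout 12 h replicate 3 (0.81, 0.0035). At 96 h the call of Fos was lost without 1A 0 h replicates 1 or 3, Eed knockout 0 h replicate 1 or 1A 96 h replicates 1 or 3 (0.051 to 0.0815) and on the RUV values (0.51). The other 5 calls in Eed knockout and both in Ezh2 knockout were kept without each single library.

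The wider pathway was read from lists of its genes, which were also chosen with earlier results of these data known. At 12 h 50.3% of all tested genes were called in Eed knockout, 50.1% in Ezh2 knockout, 42.3% in V19 wild type and 40.8% in 1A wild type, so a list with about that share of calls does not stand apart from the rest of the genes. Negative feedback genes of ERK and the ETS factors of the PEA3 group fell together, with 11 of 11 lower at 12 h in each of the 4 lines. Dusp6, a phosphatase that switches off ERK, averaged 10.3 CPM at 12 h against 189.8 CPM at 0 h in 1A wild type (-4.19 ± 0.13), and Spry4, a Sprouty inhibitor of receptor tyrosine kinase signalling, changed by -4.76 ± 0.15. Dusp4, a phosphatase like Dusp6, and Etv4, a PEA3 factor, changed by -3.53 ± 0.18 and -3.75 ± 0.14. The median of the list was -2.06 in Eed knockout, -1.76 in Ezh2 knockout, -1.70 in V19 wild type and -1.91 in 1A wild type. At 96 h 9 of 11 were lower in each line.

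Of the other immediate early genes 31 of 34 were tested, and they did not move one way. At 12 h 10 were higher and 12 lower in Eed knockout, 6 and 14 in Ezh2 knockout, 7 and 13 in V19 wild type and 7 and 14 in 1A wild type (median -0.18). Myc, the growth factor responsive oncogene, averaged 10.6 CPM at 12 h against 168.8 CPM at 0 h in 1A wild type (-4.00 ± 0.12), Phlda1 changed by -2.50 ± 0.16, Trib1 by -2.08 ± 0.11 and Zfp36l1, an RNA decay factor, by -1.51 ± 0.09. Of the 7 Srf cofactors and Egr1 corepressors 0 were higher and 4 lower in Eed knockout, 0 and 5 in Ezh2 knockout, 0 and 6 in V19 wild type and 1 and 5 in 1A wild type (median -0.79). The ternary complex factor Elk3 changed by -1.75 ± 0.17 in 1A wild type and was not called in Eed knockout (-0.17 ± 0.17, adjusted p = 0.48). Nab2 and Nab1, corepressors of Egr1, changed by -1.73 ± 0.20 and -0.69 ± 0.17 in 1A wild type, and the actin-regulated Srf cofactor Mrtfa by -0.77 ± 0.17.

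Actin cytoskeleton targets of Srf, 15 of 16 tested, had 7 higher and 5 lower at 12 h in Eed knockout, 4 and 8 in Ezh2 knockout, 4 and 3 in V19 wild type and 2 and 7 in 1A wild type (median -0.28). The 7 of 15 in V19 wild type are near the share of all genes. In 1A wild type the focal adhesion gene Zyx changed by -1.51 ± 0.16, Vcl by -0.88 ± 0.12, Actb by -0.80 ± 0.07 and Cnn2 by -0.64 ± 0.12. Among 12 tested partners and competitors of AP-1, 6 were higher and 4 lower in Eed knockout, 6 and 2 in Ezh2 knockout, 6 and 1 in V19 wild type and 5 and 1 in 1A wild type (median 0.02). Jdp2, a repressor that pairs with Jun, averaged 13.2 CPM at 12 h against 2.28 CPM at 0 h in 1A wild type (2.50 ± 0.21), beside 0.58 ± 0.14 in Eed knockout. Atf4 (0.91 ± 0.08) and Bach1 (0.74 ± 0.16) were higher in 1A wild type and Atf1 was lower (-0.56 ± 0.08).

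Of 21 genes of the ERK cascade 3 were higher and 10 lower at 12 h in Eed knockout, 5 and 6 in Ezh2 knockout, 5 and 6 in V19 wild type and 3 and 6 in 1A wild type (median -0.05), near the share of all genes in Ezh2 knockout and 1A wild type. Rps6ka1, a kinase downstream of ERK, changed by -0.84 ± 0.08 in 1A wild type, Mapk7 by -0.74 ± 0.10 and the adaptor Grb2 by -0.61 ± 0.07. Of 10 tested genes of the JNK and p38 cascades 3 were higher and 3 lower in Eed knockout, 3 and 3 in Ezh2 knockout, 3 and 3 in V19 wild type and 2 and 2 in 1A wild type (median 0.09), and the 4 of 10 in 1A wild type are near the share of all genes. Among them were Map2k6 (1.19 ± 0.16), Mapk13 (0.41 ± 0.14), Map2k7 (-0.57 ± 0.10) and Map2k3 (-0.33 ± 0.09) in 1A wild type. Of 13 heat shock genes, read as a sign of handling stress, 4 were higher and 2 lower in Eed knockout, 1 and 7 in Ezh2 knockout, 0 and 8 in V19 wild type and 1 and 6 in 1A wild type (median -0.24). Hsph1 (-0.61 ± 0.10) and Hspa5 (-0.46 ± 0.08) were among those of 1A wild type. Their part in the results was not tested.

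Across the 20 group means the members fell into different patterns, described by Pearson's r of log2 CPM over groups that share lines and times. Fos went with Ier3 (r = 0.92) and Jun (0.79), Jun with Ier3 (0.84), and Egr1 with Junb (0.80), while Ier2 correlated negatively with Jun (-0.68) and Ier3 (-0.66). Differences in level between lines enter these values. At every time Eed knockout cells had the highest mean of Fos, Jun and Ier3 and the lowest of Ier2. In the other lines Ier2 and Ier3 were both called lower at 12 h. Correlations within single lines were not computed. The genes most like Egr1 were Smim3 (0.960), the DNA methyltransferase gene Dnmt3a (0.958) and Maco1 (0.952), out of 10387 compared. For Fos they were Sorbs3, Dysf and Morc4 (0.959 to 0.945), for Jun Tpm1, Prss8 and Pkdcc (0.970 to 0.959), for Junb among others Ptprn and Hmox1 (0.936 and 0.935), and for Jund Stxbp2, Meak7 and Acbd4 (0.929 to 0.857). For Ier2 they were Zcchc10, Sf3b2 and Ppid (0.972 to 0.947), for Ier3 Car4, Pea15a and Procr (0.958 to 0.936), and for Srf Poldip3, Cdh4 and Limk1 (0.905 to 0.902). A correlation above 0.9 was reached by 85 genes with Jun, 77 with Fos, 65 with Ier2, 46 with Ier3, 22 with Egr1, 10 with Junb, 3 with Srf and 1 with Jund.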

How the data were processed

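The authors deposited a table of read counts per gene with exon lengths, and a table of values normalized by removal of unwanted variation (RUV), held here as a score. Poly(A) RNA libraries were read as 75-base single reads in a pair of merged runs, per the labels' protocols. The submitters' processing notes name the builds GRCm39 and mm39, the aligner STAR 2.7.10b, the counter featureCounts 2.0.3, and MultiQC 1.14 and DESeq2. The library kit named in the labels does not mark strand; strand settings and RUV settings are not given in the sources used here.

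All 60 libraries (20 groups of 3) entered 1 edgeR 4.0.16 quasi-likelihood model in R 4.3.3 with 40 residual degrees of freedom, TMM factors, filterByExpr (minimum count 10, minimum total 15) and Benjamini-Hochberg adjustment over 15083 genes. SEs are Wald errors of that fit. CPM use TMM factors; log2 CPM has a prior count of 2. Motif and gene lists, members and tests were chosen with earlier results of these data known. Named genes are all members, the 3 genes most correlated with each (mean of at least 5 CPM, no predicted genes) and up to 4 called genes per list by adjusted p at 12 h in 1A wild type. Of these, 2 genes are not reported here. The model was run on simulated counts for the 12 h change of 1A wild type and its difference from Eed knockout. The simulated spread followed the fit's own dispersion trend and no simulated library stood apart. The run therefore cannot show how the model handles genes or libraries with more spread. Fits without 1 library kept the gene set and dispersion trend of the full fit. Alternatives were other size factors (RLE), other filters (none, or an average of at least 1 CPM), a block for replicate number, DESeq2 1.42.0, the compared groups alone, limma 3.58.1 on log2 of the RUV values plus 1, and leaving out libraries. The titles call replicates biological without saying which cultures were separate. No 2 replicates agreed within sampling noise over 60 pairs. All table columns matched a sample.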

Additional observations from a re-analysis of the deposited data

Results flagged for a closer look

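The response to 2i differed between a knockout line and 1A wild type by the test of the difference itself (edgeR's quasi-likelihood test, adjusted over all genes, 3 libraries per group). At 12 h the change was more positive in Eed knockout than in 1A wild type for Fos (1.20 ± 0.43 SE, adjusted p = 0.049), Jun (0.54 ± 0.16, 0.017), Junb (0.52 ± 0.16, 0.023), Jund (0.72 ± 0.20, 0.013), Ier3 (0.96 ± 0.28, 0.016) and Srf (0.37 ± 0.12, 0.035). Of all genes 11.2% were called in this comparison. Each of these 12 h calls was lost on leaving out single libraries. With no filter those of Fos (0.072), Jun (0.074), Junb (0.067) and Srf (0.28) were lost too. Without Eed knockout 12 h replicate 1 the difference of Jund was 0.39 (0.19). At 96 h the change was more positive in Eed knockout for Egr1 (3.59 ± 0.81, adjusted p = 7.8e-05), Fos (0.99 ± 0.35, 0.026), Jun (1.11 ± 0.17, 4.7e-07), Junb (1.76 ± 0.16, 1.7e-12), Ier3 (1.21 ± 0.28, 5.1e-04) and Srf (0.47 ± 0.12, 0.0016). Here 27.3% of all genes were called, and the call of Fos was lost without single libraries. In Ezh2 knockout at 96 h it was more positive for Jun (0.96 ± 0.19, 2.6e-04) and Junb (0.71 ± 0.17, 0.0019). Both genes already started lower in Ezh2 knockout at 0 h. Jun then had 13.6 CPM, against 37.1 CPM in 1A wild type, and Junb 54.1 CPM against 90.6 CPM. At 96 h Jun had 11.3 CPM against 15.95 CPM, and Junb 24.6 CPM against 25.3 CPM. Neither mean was thus higher in Ezh2 knockout than in 1A wild type at 96 h. Egr1 had 17.5 CPM in Eed knockout and 69.6 CPM in 1A wild type at 0 h. At 96 h it was near the floor, with 19 reads over the Eed knockout libraries and 5 over those of 1A wild type. The difference of Egr1 between these lines at 96 h was not called (1.59, adjusted p = 0.0501).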

How the results depend on the processing

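Of 156 calls in 256 tests of members, RLE size factors kept 154, no filter 143, an average of at least 1 CPM 151, DESeq2 154 and leaving out the 5 libraries that stood apart 150, an alternative chosen after seeing the data. Fitting the compared groups alone kept 149 of 155. The RUV values kept 127, lost 21 and turned the sign of 8: in Eed knockout at 48 h Fos (-0.41) and Jun (-0.28), against 1A wild type at 0 h Fos (-0.79), Jun (-0.90) and Ier3 (-0.61), and at 96 h Fos (-0.20), Jun (-0.087) and Ier2 (0.17). The cause was not tested. Leaving out each library in turn kept 916 of 1020 calls and turned no sign.

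Replicate numbers were not shown to pair the samples: 5 of 48 same-numbered pairs correlated over 0.1 (range -0.147 to 0.202). With a replicate block 154 of 156 calls were kept and 2 gained, and the count of V19 against 1A wild type at 96 h was 2 instead of 1.

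The counts that follow leave out Fosl1 in every setting. The count of members called in Eed knockout at 48 h was 3 on the RUV values instead of 6. In Eed knockout at 96 h it was 2 with no filter, 3 with the groups alone, 2 on the RUV values and 2 without the libraries that stood apart, instead of 1. In V19 wild type at 48 h it was 4 with the groups alone instead of 8. Against 1A wild type at 0 h the RUV values gave 4 instead of 7 in Eed knockout and 2 instead of 4 in Ezh2 knockout, and leaving out 1 library gave 1 to 3 instead of 2 in V19 wild type. At 96 h the RUV values gave 3 instead of 6 in Eed knockout, leaving out 1 library gave 1 to 3 instead of 3 in Ezh2 knockout, and for V19 wild type RLE factors, the groups alone and leaving out the libraries that stood apart gave 2 each and single libraries 0 to 1, instead of 1. The difference of the 12 h response between Eed knockout and 1A wild type had 3 members with no filter and 2 to 7 without 1 library, instead of 6, and that of V19 at 96 h had 2 with the groups alone instead of 0. Depth limits Fosl1 and Egr1 in 2i, where groups held few reads or none.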
